A study of Mus musculus with 27 samples.

Results

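Intestinal adenomas with activated Braf were compared with control intestinal epithelium over all genes, in 11 of the 27 sequenced libraries of the study. The 11 were the Braf and control libraries of 1 deposited expression table, which holds 18 libraries in all and also carries a Fosl1 knockout group. The 5 Braf libraries (Braf 4 to 8) came from adenomas of mice with 1 BrafV637E allele and 1 Vil-CreERT2 transgene. V637E is the mouse counterpart of human V600E, and the villin promoter confines the tamoxifen-activated Cre recombinase to the intestinal epithelium. The 6 control libraries (control 4 to 9) came from normal intestinal epithelial tissue of mice given sunflower seed oil, and the protocol names these animals as carriers of the same alleles, so Cre was present but not induced in them. Mice of 6 weeks received 5 mg of tamoxifen, or oil alone, by gavage on 2 days. A further library named after the Braf genotype was left out because its labels disagree on its group. Activation of Braf, tamoxifen, tumour against normal tissue, and adenoma against epithelial tissue as the material sampled all separate these groups. Those differences cannot be told apart. The time from gavage to collection, the segment of intestine and the batch were not stated.

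BRAF is a kinase that activates MEK and, through it, ERK, and the mutant form signals without a growth factor. ERK then induces transcription factors and its own phosphatase and Sprouty inhibitors. In mouse intestine the activated allele is known to give rise to serrated lesions, in which gastric and fetal genes appear. The normal villus is lined by enterocytes, whose brush border carries digestive enzymes and nutrient transporters, with goblet, Paneth, enteroendocrine and tuft cells among them.

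Values are normalised counts multiplied by 1 factor for the whole table, 0.159, which brings them near the CPM scale, and are called nCPM. They compare libraries for a gene, not genes of different length. Depth was not stated, and the smallest steps between low values, which approximate 1 read, lay at 0.663 to 1.04 normalised counts in Braf and 0.950 to 1.37 in control libraries. Differences are given as log2 change, Braf minus control, on log2(nCPM + 1), which understates the change of genes near 0. Adjusted p-values are those of limma with Benjamini-Hochberg adjustment over 14806 genes, and a gene is said to have risen or fallen where its adjusted p was below 0.05. On that rule 61.6% of all genes tested changed, 45.3% higher and 16.2% lower in Braf adenomas, and 25.1% were at least 2-fold higher and 9.67% at least 2-fold lower. The libraries of both groups did not overlap for 43.8% of genes. The median gene was 0.42 higher in Braf adenomas on the log2 scale, and after rescaling by TMM (trimmed mean of M-values) that median was 0.07. The calls then split into 4629 higher and 4042 lower, against 6711 and 2404 without rescaling, so small rises depend on the scaling. Mitochondrially encoded RNA made up 3.51% to 8.61% of the values in Braf and 7.45% to 23.4% in control libraries, and with totals rescaled without it 6088 genes were higher and 2886 lower. RNA of Y-linked genes was present in 4 of 5 Braf and 2 of 6 control libraries, whose labels give no sex, and with a term for it in the fit 8822 genes changed, against 9115 without. Correlations of log2 values across genes were 0.912 to 0.963 among Braf libraries and 0.974 to 0.987 among controls, and 0.741 to 0.869 between them.

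Braf itself (chromosome 6, 39603237 to 39725463 on the minus strand, GRCm38), the targeted gene, was measured in every library. It stood at 19.7, 21.9, 19.7, 20.2 and 33.5 nCPM in Braf 4 to 8 and at 9.24 to 12.7 nCPM (median 11.8) in the 6 controls. All Braf libraries lay above all controls, and Braf 8 stood apart above the rest (log2 change 0.92, SE 0.17, adjusted p = 1.07e-04). After TMM scaling the log2 change of Braf was smaller, at 0.54 (limma, adjusted p = 0.00268). Counts of the whole gene hold both alleles, so the mutation itself was not read. Fosl1, the gene deleted in the third group of the table, was not analysed here.

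The largest rise belonged to Clu (ENSMUSG00000022037, chromosome 14, 65968483 to 65981547), which encodes clusterin, a secreted chaperone that marks regenerating intestinal epithelium in the mouse. It had 2369, 6083, 4982, 2319.9 and 8982 nCPM in Braf 4 to 8, against 5.17 to 8.02 nCPM (median 5.66) in controls. Every adenoma was far above every control, and Braf 8 had the most and Braf 7 the least (log2 change 9.23, SE 0.38, adjusted p = 1.23e-12). Atg9b (chromosome 5, 24384181 to 24392143), a relative of the autophagy membrane protein ATG9A, had 824, 1089.6, 847, 375 and 978 nCPM in Braf 4 to 8 and 0.299 to 1.797 nCPM (median 0.868) in controls. The groups were again far apart, with Braf 7 the lowest adenoma (log2 change 8.69, SE 0.31, adjusted p = 1.21e-13). The GPI-anchored surface antigens Ly6d and Ly6a, the second also called Sca-1, followed. Ly6d had 588, 452, 913, 453 and 647 nCPM in Braf 4 to 8 and 0.592 to 2.66 nCPM (median 1.67) in controls (log2 change 7.93, SE 0.30, adjusted p = 1.55e-13), the smallest spread among adenomas of these leading genes apart from Il1rn. Ly6a had 438, 463, 648, 301 and 1168 nCPM in Braf 4 to 8 and 0.592 to 4.08 nCPM (median 1.35) in controls (log2 change 7.62, SE 0.49, adjusted p = 2.50e-09).

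Il1rn, which encodes the antagonist of the interleukin-1 receptor, had 354, 368, 281, 487 and 509 nCPM in Braf 4 to 8 and 0.903 to 3.69 nCPM (median 1.19) in controls (log2 change 7.28, SE 0.42, adjusted p = 3.76e-10). Anxa1, a phospholipid-binding protein known from fetal-like intestinal epithelium, had 220.2, 336, 325, 228 and 519 nCPM and 0.592 to 1.63 nCPM (median 1.14) in these groups (log2 change 7.25, SE 0.34, adjusted p = 4.74e-12). The other 6 of the 12 largest rises were of mixed kinds. Mcpt2 is a mast cell protease, Tnfrsf11b encodes osteoprotegerin, a decoy receptor of the TNF family, Tff2 and Gkn3 are secreted by gastric mucosa, Aldh1a3 makes retinoic acid, and Wfdc18 belongs to the whey acidic protein family. Their log2 changes lay between 6.90 for Wfdc18 and 7.15 for Mcpt2, and none of the 12 overlapped between groups, which the rule that named them required. Wfdc18 was the nearest to absent in controls (71.7 to 197 against 0 to 0.221 nCPM), and Tnfrsf11b had 83.02 to 502 against 0.221 to 0.612 nCPM and Mcpt2 129 to 419 against 0.16 to 1.71 nCPM. Genes of the Ly6 and Mcpt families share sequence with their relatives, so their reads may be split uncertainly.

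**Figure D1:**
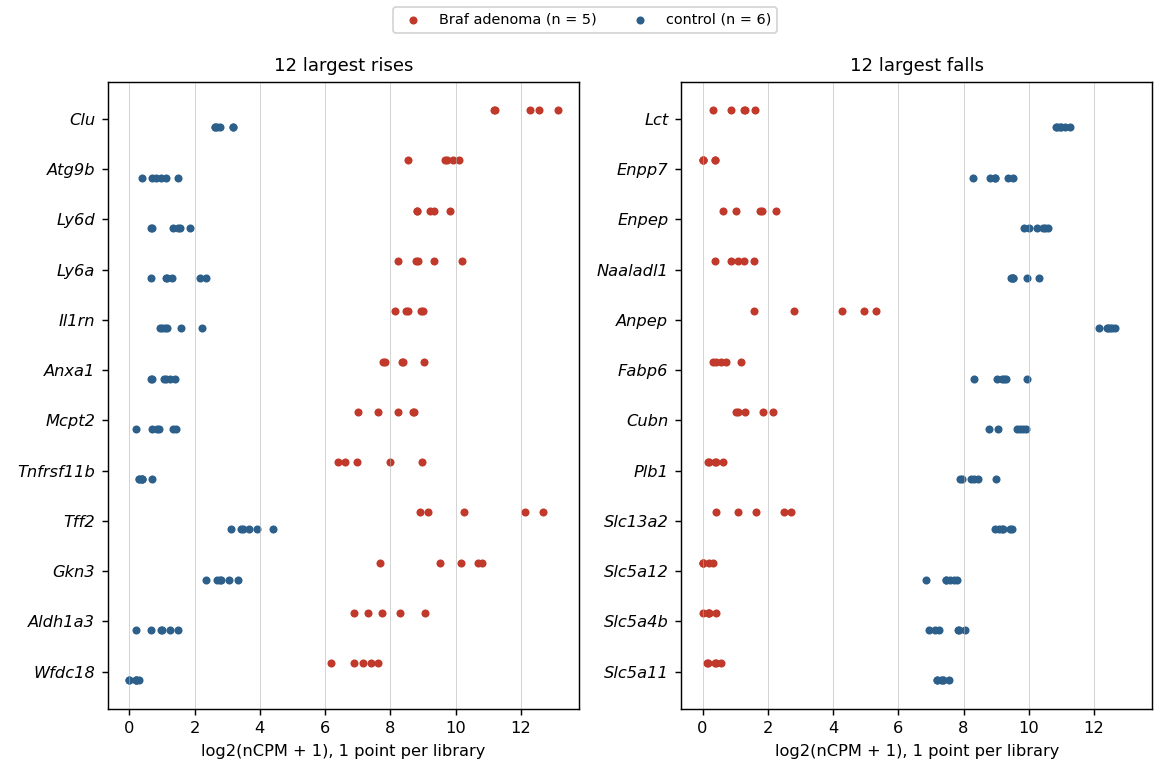
Values of the 12 largest rises (left) and the 12 largest falls (right), with log2(nCPM + 1) on the horizontal axis and 1 point per library, red for the 5 Braf adenomas and blue for the 6 controls. No gene overlaps between the groups, as the naming rule required, and among the falls Anpep and Slc13a2 show the widest spread among adenomas.

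The largest fall belonged to Lct (ENSMUSG00000026354, chromosome 1, 128284756 to 128328318), which encodes lactase. It had 1.45, 1.41, 0.815, 2.07 and 0.252 nCPM in Braf 4 to 8, against 1814 to 2456 nCPM (median 2024) in controls. Lct was thus near 0 in every adenoma and high in every control (log2 change -9.93, SE 0.81, adjusted p = 9.38e-08). Enpp7 (chromosome 11, 118988188 to 118993221), the intestinal alkaline sphingomyelinase, had 0.314, 0, 0, 0.318 and 0 nCPM in Braf 4 to 8 and 309 to 731 nCPM (median 497) in controls (log2 change -8.83, SE 0.31, adjusted p = 2.36e-14). In 3 of 5 adenomas it was listed at 0, and the other values are of the order of 1 or 2 reads. The brush border enzymes among the 12 were completed by 4 more peptide- or lipid-cleaving proteins: glutamyl aminopeptidase (Enpep), the dipeptidase-like Naaladl1, aminopeptidase N (Anpep) and phospholipase B1 (Plb1).

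Enpep had 2.58, 1.06, 2.36, 3.81 and 0.541 nCPM in Braf 4 to 8 and 929 to 1537 nCPM (median 1305) in controls (log2 change -8.77, SE 0.84, adjusted p = 5.33e-07). Anpep had 30.2, 6.05, 18.5, 39.1 and 1.99 nCPM in Braf 4 to 8 and 4569.5 to 6369.8 nCPM (median 5615) in controls (log2 change -8.65, SE 1.01, adjusted p = 4.46e-06). These genes were separated from all controls, but Anpep kept readable levels in Braf 4, 6 and 7. Fabp6, the ileal bile acid binding protein, had 0.637, 0.343, 0.253, 0.476 and 1.27 nCPM in Braf 4 to 8 and 316 to 989.9 nCPM (median 589.8) in controls (log2 change -8.52, SE 0.27, adjusted p = 4.18e-15), and Cubn, the ileal receptor for intrinsic factor with cobalamin, 1.44, 1.06, 2.64, 3.496 and 1.12 nCPM and 441 to 962 nCPM (median 820.3) (log2 change -8.00, SE 0.36, adjusted p = 2.99e-12). The last 4 were sodium-coupled carriers: Slc13a2 for dicarboxylates, Slc5a12 for monocarboxylates, and Slc5a4b and Slc5a11 of the glucose carrier family. Slc13a2 had 0.343 to 5.56 against 495 to 715 nCPM, Slc5a12 0 to 0.252 against 113 to 224 nCPM, Slc5a4b 0 to 0.343 against 123 to 263 nCPM and Slc5a11 0.106 to 0.476 against 145 to 188 nCPM in Braf adenomas against controls. Their log2 changes were -7.56 for Slc13a2, -7.37 for Slc5a12, -7.31 for Slc5a4b and -7.00 for Slc5a11, and Plb1 (0.112 to 0.541 against 235 to 514 nCPM) and Naaladl1 (0.318 to 1.99 against 702 to 1281 nCPM) had log2 changes of -7.95 and -8.67.

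Promoter windows were taken from RefSeq (GRCm38.p6), 250 bases upstream of each start site, for 15 of these 24 genes in 18 windows. The windows were searched on both strands for TGANTCA, the letters AP-1 dimers of FOS and JUN proteins bind, which read the same on either strand. They occurred in 2 windows, of a gene that rose and a gene that fell, and these are shown with the letters in capitals. The Il1rn window is chr2:24336610-24336859 on the plus strand, with the letters beginning 141 bases before the start site. The Plb1 window is chr5:32238834-32239083 on the plus strand, inside the GENCODE span of the gene, with the letters 200 bases before that start.
Il1rn: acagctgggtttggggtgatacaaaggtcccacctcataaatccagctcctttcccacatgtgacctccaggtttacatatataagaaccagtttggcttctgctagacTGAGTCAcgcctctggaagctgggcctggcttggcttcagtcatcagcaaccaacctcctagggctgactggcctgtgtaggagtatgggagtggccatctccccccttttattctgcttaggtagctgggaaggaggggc
Plb1: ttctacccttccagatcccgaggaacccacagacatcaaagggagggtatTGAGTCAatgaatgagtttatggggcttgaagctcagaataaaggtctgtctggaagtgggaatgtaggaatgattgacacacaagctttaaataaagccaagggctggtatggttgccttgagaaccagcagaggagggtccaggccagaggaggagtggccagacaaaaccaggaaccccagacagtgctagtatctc
Over 13918 windows of 10907 tested genes these letters stood in 5.07%, in 5.99% of windows of genes at least 2-fold higher and in 7.33% of windows of genes at least 2-fold lower in Braf adenomas. A match of letters is not evidence of binding, and genes of both directions carry it.

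The genes that follow come from 53 lists by function or cell type, which held 749 genes, of which 682 were tested, 9 were below the filter and 58 had no line in the table. The list of brush border hydrolases held 20 genes, and all were tested. Braf adenomas were lower in 17 of them and higher in 1, where 16.2% of all genes tested were lower and 45.3% higher, with a median log2 change of -5.44 against 0.42 over all genes tested. Mep1a, the alpha subunit of the metalloprotease meprin, was at 3.48 ± 2.45 against 276 ± 78.6 nCPM in adenomas against controls (± is SD over 5 adenomas and over 6 controls here and below), a log2 change of -6.15 with adjusted p = 1.22e-10. Mgam, which encodes maltase-glucoamylase, was less reduced at 369 ± 163 against 3137 ± 339.6 nCPM (log2 change -3.19, adjusted p = 4.32e-07), with 211 to 560.2 against 2797 to 3504 nCPM as its ranges. The gene that rose was Alpl, the tissue-nonspecific alkaline phosphatase, which was low in both groups (0.794 to 7.11 against 0 to 0.453 nCPM, log2 change 1.58, adjusted p = 4.15e-04). The 2 that passed in neither direction were intestinal alkaline phosphatase (Alpi) and enteropeptidase (Tmprss15), which activates trypsinogen. Alpi had 3916, 1525, 2464, 7578 and 371 nCPM in Braf 4 to 8 and 1762 to 3473 nCPM (median 2747) in controls, so that Braf 4 and 7 exceeded all controls while Braf 5 and 8 were below them all (log2 change -0.35, 95% interval -1.53 to 0.83, adjusted p = 0.605). Tmprss15 had 23.3, 2.13, 16.96, 154 and 0.5396 nCPM in Braf 4 to 8 and 24.4 to 63.4 nCPM (median 43.1) in controls (log2 change -1.72, 95% interval -4.14 to 0.71, adjusted p = 0.202), again with Braf 7 the highest and Braf 8 the lowest library of all.

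Other absorptive lists moved the same way. Of 9 genes of ileal bile acid and cobalamin uptake, 9 fell (median log2 change -4.16), all without overlap. Besides Fabp6 and Cubn they included the basolateral bile acid exporter subunit Slc51b (1.48 ± 1.403 against 48.2 ± 9.37 nCPM), the cubilin partner amnionless (Amn, 9.08 ± 7.92 against 253 ± 43.3 nCPM) and Fgf15, the hormone by which ileum restrains bile acid synthesis in the liver (0 to 0.536 against 5.81 to 66.7 nCPM). Of 20 genes of fat absorption and lipoprotein assembly, 17 fell and none rose (median -3.77), and 19 fell after TMM scaling. The fatty acid transporter Slc27a4 was at 146 ± 86.6 against 1046 ± 174 nCPM, the cholesterol acyltransferase Soat2 at 32.6 ± 24.8 against 361 ± 38.9 nCPM, and Npc1l1, the cholesterol importer of the brush border, at 41.7 ± 38.7 against 959 ± 149 nCPM. Apoc2 (0 to 1.45 against 0.617 to 2.41 nCPM), the receptor Scarb1 (41.3 to 122 against 29.5 to 67.5 nCPM) and the lipid droplet coat protein Plin2 (56.2 to 144 against 111 to 147 nCPM) did not pass, and Apoc2 and Plin2 fell after TMM scaling.

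Among 19 nutrient transporters 13 fell and 6 rose (median -3.1). The falls covered uptake across the villus: the proton-coupled amino acid carrier Slc36a1 (26.9 ± 2.61 against 270.4 ± 27.7 nCPM, log2 change -3.28), the glutamate carrier Slc1a1 (2.91 ± 1.05 against 36.9 ± 6.39 nCPM, -3.30), Slc3a2, the heavy chain shared by several amino acid exchangers (129 ± 19.5 against 439.7 ± 33.9 nCPM, -1.77), and its partner Slc7a8 (7.94 ± 4.78 against 491 ± 31.95 nCPM, -5.97). The rises were carriers that dividing cells use widely. Slc7a11, the light chain of the cystine importer, had 38.3, 46.02, 108, 69.8 and 165 nCPM in Braf 4 to 8 and 0.158 to 0.612 nCPM (median 0.421) in controls (log2 change 5.78, SE 0.41, adjusted p = 1.61e-09). The glucose transporter Slc2a1 was at 71.7 ± 10.01 against 8.703 ± 3.55 nCPM, the leucine exchanger Slc7a5 at 26.8 ± 7.8 against 4.47 ± 1.63 nCPM, the glutamine carriers Slc1a5 and Slc38a1 at 89.4 ± 28.2 against 23.97 ± 13.2 nCPM and 88.3 ± 25.01 against 25.7 ± 4.41 nCPM, and Slc38a2 at 172 ± 16.3 against 80.6 ± 13.6 nCPM. Their log2 changes were 3.00 for Slc2a1, 2.36 for Slc7a5, 1.93 for Slc1a5, 1.72 for Slc38a1 and 1.10 for Slc38a2. The heavy chain Slc3a2 thus fell while its light chains Slc7a5 and Slc7a11 rose.

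Detoxifying enzymes followed the absorptive genes. Of 28 cytochrome P450 and conjugating enzymes 19 fell and 3 rose (median -2.6, 22 fell after TMM scaling). Cyp2c66 was at 1.79 ± 2.39 against 74.4 ± 44.9 nCPM, the carboxylesterase Ces1f at 29.2 ± 7.03 against 215 ± 74.8 nCPM and the glutathione transferase Gstm3 at 14.5 ± 11.02 against 305 ± 136 nCPM. Cyp2b10, induced by the nuclear receptor CAR, had 0.9601, 0.343, 1.66, 41.8 and 0.396 nCPM in Braf 4 to 8 and 134 to 494 nCPM (median 273) in controls, so that Braf 7 alone kept a readable level (log2 change -6.26, SE 0.79, adjusted p = 8.17e-06). The rises were Cyp1b1 (7.43 to 19.1 against 0 to 0.245 nCPM), which is found in stroma as well as epithelium, the glutathione transferase Gsta4 (994 ± 437 against 169 ± 57.2 nCPM) and Ugt8a, which had 0.6396, 3.42, 3.87, 2.23 and 5.997 nCPM in Braf 4 to 8 and was below the 0.5 normalised counts read as 0 in all controls. Members of these families share sequence, so reads may be split uncertainly between them.

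The lowered genes did not fall alike in every adenoma. Over the 75 genes lower in the 5 absorptive and metabolic lists above (hydrolases, transporters, fat absorption, ileal uptake, P450 and conjugation), the highest adenoma was Braf 7 for 61, and the lowest was Braf 8 for 48 and Braf 5 for 15. As a median over the 17 lowered genes of fat absorption, Braf 4 to 8 kept 16.6%, 2.36%, 6.22%, 31.4% and 0.789% of the control mean. Braf 7 was the highest for 17 of these 17 and Braf 8 the lowest for 16. For the 17 lowered hydrolases the medians were 2.22%, 0.362%, 1.45%, 5.29% and 0.297%, and for the 19 lowered P450 and conjugating enzymes 10.6%, 1.75%, 6.06%, 27.9% and 0.652%. In these lists Braf 7 kept the most and Braf 8 and 5 the least. In the 9 ileal genes Braf 4 (7.36%) and Braf 7 (7.29%) were alike, and Braf 5 (0.629%) and Braf 8 (0.817%) again the lowest.

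Genes named here after their values were seen show both ends. Apoa1, the apolipoprotein of high-density lipoprotein, stood at 14.1%, 1.12%, 5.78%, 31.4% and 0.363% of the control mean in Braf 4 to 8, and Fabp1, the liver-type fatty acid binding protein, at 20.04%, 4.195%, 9.06%, 46.2% and 0.257%. Sis, sucrase-isomaltase, had 75.4, 2.48, 38.3, 239 and 0.542 nCPM in Braf 4 to 8 and 2241 to 3017 nCPM (median 2649) in controls (log2 change -6.97, SE 1.40, adjusted p = 5.75e-04), one of the 6 genes with the widest spread among adenomas. By contrast, 8 of the 75 genes stayed under 2% of the control mean in all 5 adenomas, Braf 7 included. These were Enpp7, Lct, Fabp6, Naaladl1, Enpep, Cubn, Anpep and Cyp2c29. In 53 of the 75 at least 1 adenoma kept over 10%.

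**Figure D2:**
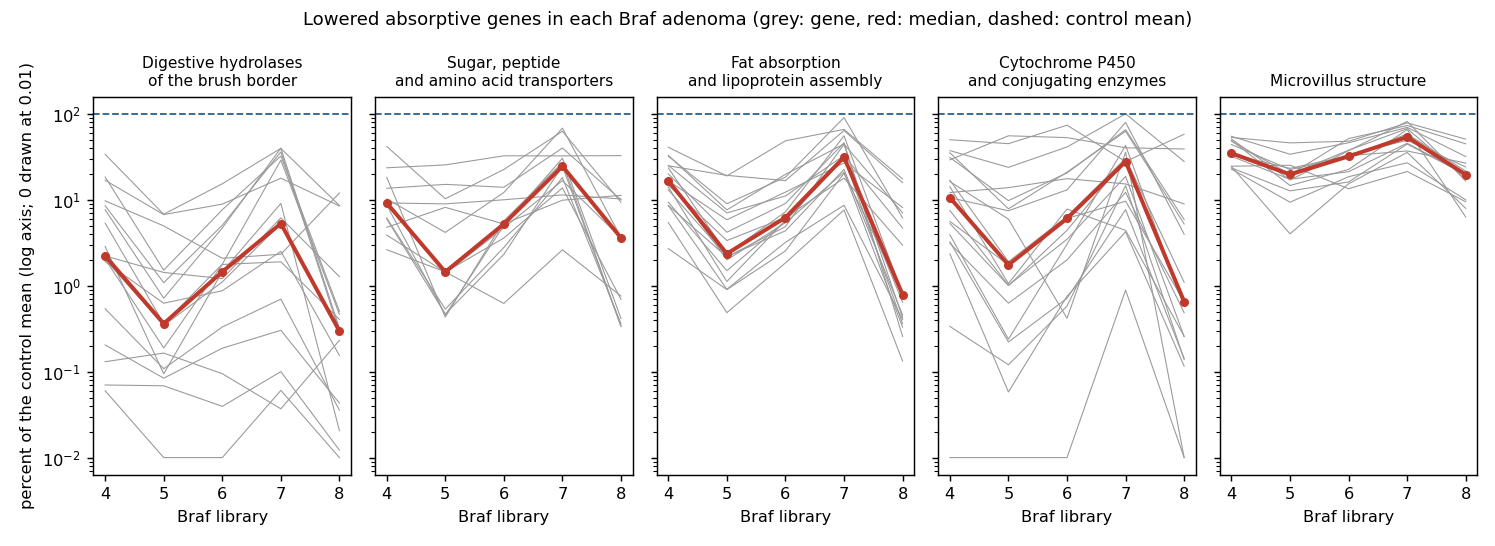
Percent of the control mean (vertical log axis, 0 drawn at 0.01) in Braf libraries 4 to 8 for genes lower in Braf adenomas, in 5 lists. Grey lines join the values of 1 gene, the red line is the median and the dashed line the control mean. Braf 7 has the highest median in each of the 5 panels.

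The letters CAAAGTCCA, a form of the site that HNF4 nuclear receptors bind, were searched on both strands of the 82 upstream windows of these genes, which 64 of the 75 had. They stood in 3 windows, shown with the letters or their reverse complement in capitals, of the P450 gene Cyp3a11, the cystine and dibasic amino acid transporter subunit Slc3a1 and trehalase (Treh). The windows are chr5:145879855-145880104 on the minus strand, chr17:85028097-85028346 on the plus strand and chr9:44672983-44673232 on the plus strand of GRCm38.p6, from RefSeq.
Cyp3a11: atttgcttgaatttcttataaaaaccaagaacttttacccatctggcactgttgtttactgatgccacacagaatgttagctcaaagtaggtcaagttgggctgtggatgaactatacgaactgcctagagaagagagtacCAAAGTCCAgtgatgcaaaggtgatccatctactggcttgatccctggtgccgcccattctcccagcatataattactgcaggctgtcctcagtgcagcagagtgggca
Slc3a1: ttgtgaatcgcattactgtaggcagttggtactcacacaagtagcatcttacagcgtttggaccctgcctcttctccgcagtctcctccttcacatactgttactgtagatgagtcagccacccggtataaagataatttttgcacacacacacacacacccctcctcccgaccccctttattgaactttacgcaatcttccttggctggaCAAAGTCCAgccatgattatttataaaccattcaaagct
Treh: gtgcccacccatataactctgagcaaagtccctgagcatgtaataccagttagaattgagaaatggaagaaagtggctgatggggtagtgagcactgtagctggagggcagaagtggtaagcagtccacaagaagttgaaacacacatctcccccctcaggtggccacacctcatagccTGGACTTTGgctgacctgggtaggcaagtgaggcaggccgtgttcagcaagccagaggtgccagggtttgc
Over all 13918 windows the letters stood in 0.453%, in 0.338% of windows of genes at least 2-fold higher and 1.47% of windows of genes at least 2-fold lower. These shares describe letters only.

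The transcription factors of mature intestine parted. Of 23 tested, 12 fell, 6 rose and 5 passed in neither direction (median -0.5). Hnf4g, one of the HNF4 pair, was at 20.8 ± 19.4 against 145 ± 13.9 nCPM (log2 change -3.08, SE 0.40, adjusted p = 4.18e-06), whereas Hnf4a, named here as its partner, stood at 515 ± 128 against 591 ± 83.9 nCPM (log2 change -0.22, 95% interval -0.63 to 0.18, adjusted p = 0.33) and fell after TMM scaling. The bile acid and xenobiotic receptors also fell, among them Nr1i3 (CAR) at 2.76 ± 2.71 against 19.7 ± 4.197 nCPM and Nr1i2 (PXR) at 68.9 ± 18.3 against 168 ± 19.1 nCPM. The rises were Foxa3 (44.2 ± 14.8 against 8.72 ± 2.33 nCPM), Onecut2 (428 ± 110 against 105 ± 19.6 nCPM), Pparg (73.2 ± 10.2 against 17.5 ± 4.98 nCPM), Prdm1 (26.2 ± 10.7 against 7.07 ± 1.65 nCPM), Klf5 (571 ± 164 against 339 ± 46.3 nCPM) and Foxa2 (7.19 ± 4.303 against 3.31 ± 1.39 nCPM). The calls of Klf5 and Foxa2 ended after TMM scaling. Cdx2, the master regulator of intestinal identity, was lower by little (111 ± 22.7 against 156 ± 24.2 nCPM, log2 change -0.50, SE 0.20, adjusted p = 0.0321), and its adjusted p lay between 0.0634 and 0.083 when Braf 4, Braf 5, control 6 or control 7 was left out. The call of Foxa2 was lost in the same way without Braf 5, control 4, 5 or 8 (adjusted p 0.0516 to 0.103).

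Factors of progenitors and foregut rose instead: 14 of 16 tested rose and none fell (median 2.91). Msx1, a homeobox factor of embryonic tissues, had 111, 129, 176, 140 and 113 nCPM in Braf 4 to 8 and 0.158 to 0.407 nCPM (median 0.271) in controls (log2 change 6.72, SE 0.30, adjusted p = 7.44e-13), with no adenoma near any control. Sox9, the crypt and Paneth cell factor, was at 311 ± 110.3 against 18.7 ± 3.17 nCPM, Runx1 at 62.2 ± 17.8 against 3.004 ± 1.497 nCPM, Foxq1 at 236 ± 31.04 against 24.5 ± 9.42 nCPM, Foxa1 at 120.3 ± 33.9 against 13.1 ± 3.21 nCPM and Sox4 at 311 ± 199 against 26.3 ± 4.93 nCPM. Their log2 changes lay between 3.09 for Foxa1 and 4.02 for Runx1. Atoh1, which commits cells to the secretory lineages, and Gata5 passed in neither direction (0.392 to 10.01 against 5.56 to 17.1 nCPM and 64.2 to 113 against 76.02 to 109 nCPM) and fell after TMM scaling.

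Markers of fetal and regenerating epithelium rose in 13 of 13 tested (median log2 change 5.88). With Clu, Anxa1, Il1rn and Ly6a they included Anxa3 (256 ± 54.7 against 3.62 ± 2.15 nCPM), mesothelin (Msln, 133 ± 67.6 against 1.901 ± 0.609 nCPM), the cornified envelope gene Sprr1a (134 ± 54.2 against 0.9303 ± 0.467 nCPM) and Basp1 (72.3 ± 30.7 against 1.35 ± 0.515 nCPM). Braf 8 was the highest adenoma for 7 of the 13, and Braf 4 and Braf 7 were each the lowest for 4.

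Gastric markers rose in 16 of 17 tested (median 4.96). Tff2, a mucus-stabilising trefoil peptide of the stomach, had 573, 4521, 6600.3, 476 and 1212 nCPM in Braf 4 to 8 and 7.68 to 20.1 nCPM (median 11.01) in controls (log2 change 6.96, SE 0.68, adjusted p = 5.19e-07). Gkn3, a gastrokine of gastric mucosa, had 205, 1146, 1802, 733 and 1642 nCPM and 4.12 to 9.01 nCPM (median 5.94) (log2 change 6.94, SE 0.66, adjusted p = 4.06e-07). Both separated the groups fully, but the lowest and highest adenomas were far apart. Anxa10 (677 ± 258 against 9.59 ± 5.21 nCPM) and Ctse, which encodes cathepsin E (1390 ± 371 against 13.9 ± 8.44 nCPM), were more even, and Vsig1 was at 80.8 ± 42.7 against 0.663 ± 0.394 nCPM. Muc5ac, the mucin of the gastric surface, was the gene that did not pass, since it had 0.314, 13.9, 386, 0.159 and 0.686 nCPM in Braf 4 to 8 against 3.94 to 10.04 nCPM (median 5.64) in controls (log2 change -0.05, 95% interval -2.79 to 2.69, adjusted p = 0.975). Braf 6 and, to a lesser extent, Braf 5 were above all controls, and Braf 4, 7 and 8 were below them. Of the 16 markers that rose, Braf 6 was the highest adenoma for 12 and Braf 4 the lowest for 10.

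**Figure D3:**
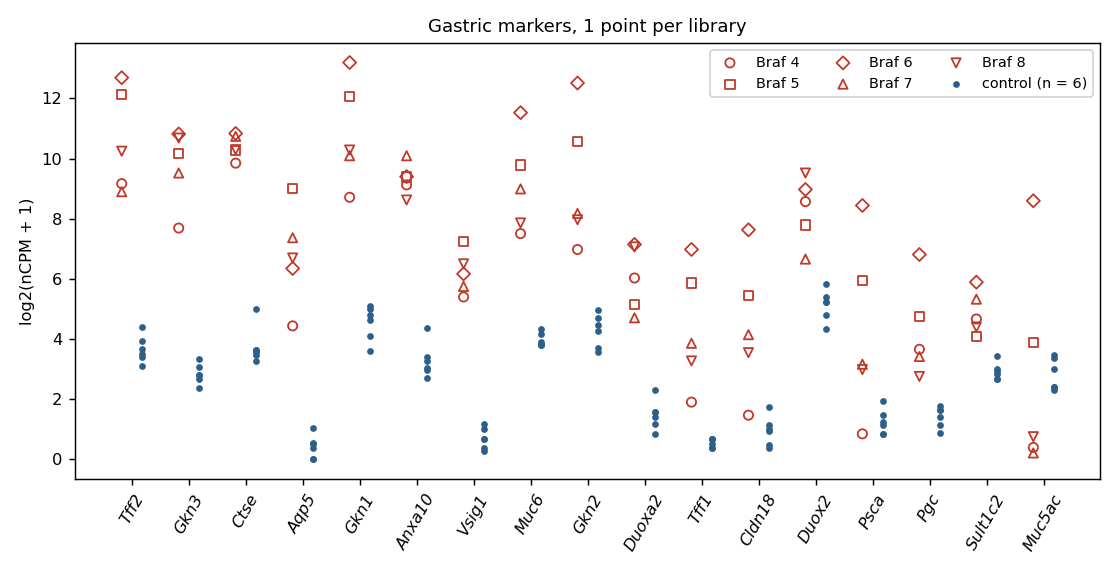
Log2(nCPM + 1) of the 17 gastric markers tested, ordered by log2 change, with open red symbols for each Braf adenoma and blue points for the 6 controls. Braf 6 (diamond) is the highest adenoma for most genes, and Muc5ac at the right overlaps between the groups.

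Crypt genes were mostly higher. Of 14 stem cell markers 10 rose and 1 fell (median 1.91). Tnfrsf19 (Troy) was at 52.9 ± 29.6 against 0.533 ± 0.453 nCPM, the ephrin receptors Ephb3 and Ephb2 at 129 ± 44.1 against 6.595 ± 2.52 nCPM and 125 ± 36.2 against 31.7 ± 10.7 nCPM, Prom1 at 426 ± 285 against 22.98 ± 4.21 nCPM and the chloride cotransporter Slc12a2 at 385 ± 168 against 81.8 ± 28.5 nCPM. Olfm4, a secreted protein of crypt base cells, fell (42.7 ± 29.1 against 258 ± 141 nCPM, log2 change -2.69, SE 0.72, adjusted p = 0.00448). Lgr5, the receptor that defines crypt base stem cells, had 1.77, 44.2, 0.5299, 41.01 and 7.82 nCPM in Braf 4 to 8 and 2.91 to 7.78 nCPM (median 6.89) in controls (log2 change 0.41, 95% interval -1.46 to 2.28, adjusted p = 0.702). Braf 5 and 7 were far above all controls and Braf 4 and 6 below them, so no shift common to the group was detectable. Smoc2 and Rgmb did not pass either (24.5 to 148 against 19.2 to 56.7 nCPM and 27.1 to 36.99 against 29.3 to 43.6 nCPM), and Rgmb fell after TMM scaling.

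Genes listed as Wnt feedback rose in 13 of 14 and fell in 1 (median 2.11, 11 rose after TMM scaling). Many of them are induced by beta-catenin, and many restrain Wnt signalling. Notum, a secreted enzyme that inactivates Wnt ligands, had 68.5, 92.8, 107, 77.4 and 136 nCPM in Braf 4 to 8 and 0.915 to 2.07 nCPM (median 1.11) in controls (log2 change 5.40, SE 0.22, adjusted p = 1.55e-13), and Nkd1, an inhibitor of Dishevelled, had 73.3, 124, 119.7, 102 and 156 nCPM and 0.242 to 1.92 nCPM (median 0.5402) (log2 change 6.04, SE 0.26, adjusted p = 3.60e-13). Every adenoma was far above every control for both. Axin2, the scaffold of the beta-catenin destruction complex, was at 159.9 ± 58.8 against 33.1 ± 5.33 nCPM, the ligase Rnf43 at 217 ± 58.1 against 50.9 ± 6.12 nCPM, and the factors Tcf7 and Lef1 at 52.4 ± 16.2 against 3.62 ± 1.37 nCPM and 8.998 ± 3.24 against 0.687 ± 0.351 nCPM. Dkk3 rose as well (11.7 ± 7.16 against 0.216 ± 0.205 nCPM). Sfrp5, a secreted Wnt antagonist, fell (0.3796 ± 0.217 against 4.28 ± 2.202 nCPM, log2 change -1.82, SE 0.28, adjusted p = 1.51e-05).

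Genes known to be induced by ERK were higher. Of 10 feedback inhibitors 9 rose and none fell (median 1.83, 7 rose after TMM scaling). The ERK phosphatase Dusp6 had 186, 162, 122, 295 and 157 nCPM in Braf 4 to 8 and 31.1 to 61.1 nCPM (median 53.7) in controls (log2 change 1.84, SE 0.24, adjusted p = 2.18e-06). Dusp4 was at 28.4 ± 10.6 against 2.58 ± 0.979 nCPM and Dusp7 at 13.6 ± 3.86 against 1.497 ± 0.377 nCPM, and the inhibitors Spry1, Spry4 and Spred1 at 34.7 ± 6.099 against 5.75 ± 1.14 nCPM, 21.8 ± 15.6 against 1.79 ± 1.05 nCPM and 37.1 ± 6.25 against 9.92 ± 2.63 nCPM. Dusp5 did not pass (13.2 to 48.95 against 14.97 to 24.9 nCPM, log2 change 0.40, 95% interval -0.26 to 1.05, adjusted p = 0.279). Of 11 ERK-induced factors and early genes 10 rose (median 2.62). The ETS factors Etv4 and Etv5 stood at 97.4 ± 41.4 against 3.81 ± 1.498 nCPM and 46.3 ± 13.4 against 2.14 ± 1.32 nCPM, the growth regulator Myc at 151 ± 60.7 against 22.96 ± 6.32 nCPM, Egr3 at 6.33 ± 1.92 against 0.282 ± 0.164 nCPM, and the early genes Ier3 and Phlda1 at 83.2 ± 21.4 against 5.61 ± 0.462 nCPM and 271 ± 137 against 9.22 ± 4.52 nCPM. Srf, which itself drives early genes, did not pass (32.3 to 50.6 against 27.3 to 43.7 nCPM). Of 12 tested AP-1 genes 7 rose, where 45.3% of all genes rose, with a median of 0.85 against 0.42 over all genes. After TMM scaling 5 rose and 1 fell (median 0.45 against 0.07). The largest of the 7 rises was Maff at 38.8 ± 10.7 against 11.52 ± 2.41 nCPM. Jun stood at 169 ± 25.7 against 75.7 ± 14.02 nCPM, Junb at 323 ± 75.6 against 163 ± 20.5 nCPM and Jund at 83.8 ± 11.02 against 56.3 ± 6.67 nCPM, the call of Jund ending after TMM scaling, while Fos, named here for its role, had 115 to 412 against 71.6 to 171 nCPM (log2 change 0.74, 95% interval -0.09 to 1.56, adjusted p = 0.111).

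Of 9 tested ligands and receptors of the EGF family 6 rose and 1 fell (median 1.31). Amphiregulin (Areg) had 127, 86.2, 70.5, 116 and 63.8 nCPM in Braf 4 to 8 and 4.702 to 7.91 nCPM (median 6.95) in controls (log2 change 3.58, SE 0.19, adjusted p = 4.24e-12), and betacellulin (Btc) 59.6, 86.9, 66.3, 89.2 and 85.6 nCPM and 2.46 to 5.76 nCPM (median 3.47) (log2 change 4.07, SE 0.29, adjusted p = 6.01e-10). Both ligands were above all controls in every adenoma. Their receptor Egfr was at 97.1 ± 24.6 against 13.5 ± 3.01 nCPM, Hbegf at 65.1 ± 17.3 against 25.2 ± 4.53 nCPM, Tgfa at 57.98 ± 12.04 against 25.9 ± 5.45 nCPM and Nrg1 at 2.03 ± 0.864 against 0.1401 ± 0.123 nCPM. The receptor Erbb3 fell (303 ± 68.5 against 425 ± 60.3 nCPM, log2 change -0.50, SE 0.19, adjusted p = 0.0243), with an adjusted p of 0.0561 to 0.076 without Braf 4, Braf 5 or control 5. Erbb2 (132 to 176 against 133 to 209 nCPM), which fell after TMM scaling, and epiregulin (Ereg, 0.6805 to 9.54 against 2.46 to 12.2 nCPM) did not pass.

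Of 11 targets and effectors of YAP and TEAD 8 rose and none fell (median 2.6, Amotl2 fell after TMM scaling). The matrix protein gene Ccn2 was at 37.96 ± 36.5 against 0.0633 ± 0.1002 nCPM, the coactivator Wwtr1 (TAZ) at 29.4 ± 9.05 against 0.5097 ± 0.326 nCPM, its DNA-binding partners Tead1 and Tead4 at 56.9 ± 18.4 against 8.42 ± 2.09 nCPM and 10.01 ± 5.62 against 0.304 ± 0.247 nCPM, Ajuba at 33.1 ± 14.1 against 1.34 ± 0.619 nCPM and the receptor kinase Axl at 9.34 ± 3.89 against 0.5305 ± 0.237 nCPM. Crim1, Amotl2 and Lats2 had 39.6 to 65.6 against 31.6 to 42.2 nCPM, 8.55 to 20.6 against 12.3 to 24.4 nCPM and 10.01 to 12.7 against 8.71 to 12.2 nCPM. Of 17 genes of TGF-beta and BMP signalling 13 rose and 1 fell (median 1.74). Tgfb1 was at 20.8 ± 5.13 against 1.45 ± 0.572 nCPM, the stress cytokine Gdf15 at 41.4 ± 22.1 against 1.78 ± 0.951 nCPM, the activin subunit Inhba at 12.1 ± 10.3 against 0.0516 ± 0.126 nCPM and the BMP targets Id1 and Id3 at 324 ± 48.9 against 95.9 ± 16.8 nCPM and 245 ± 32.3 against 78.5 ± 14.8 nCPM. The ligands Bmp2 (5.16 to 27.3 against 13.9 to 29.9 nCPM) and Bmp7 (1.84 to 16.8 against 1.01 to 5.15 nCPM) and the inhibitor Smad7 (37.6 to 73.8 against 43.9 to 63.4 nCPM) did not pass, and Bmp2 fell after TMM scaling. Bmp1, a protease that processes procollagen, fell (15.6 ± 6.48 against 72.7 ± 10.8 nCPM, log2 change -2.22, SE 0.23, adjusted p = 1.10e-07). Ccn2, Axl and Inhba are also expressed in stroma, whose markers were higher in adenomas as given below.

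**Figure D4:**
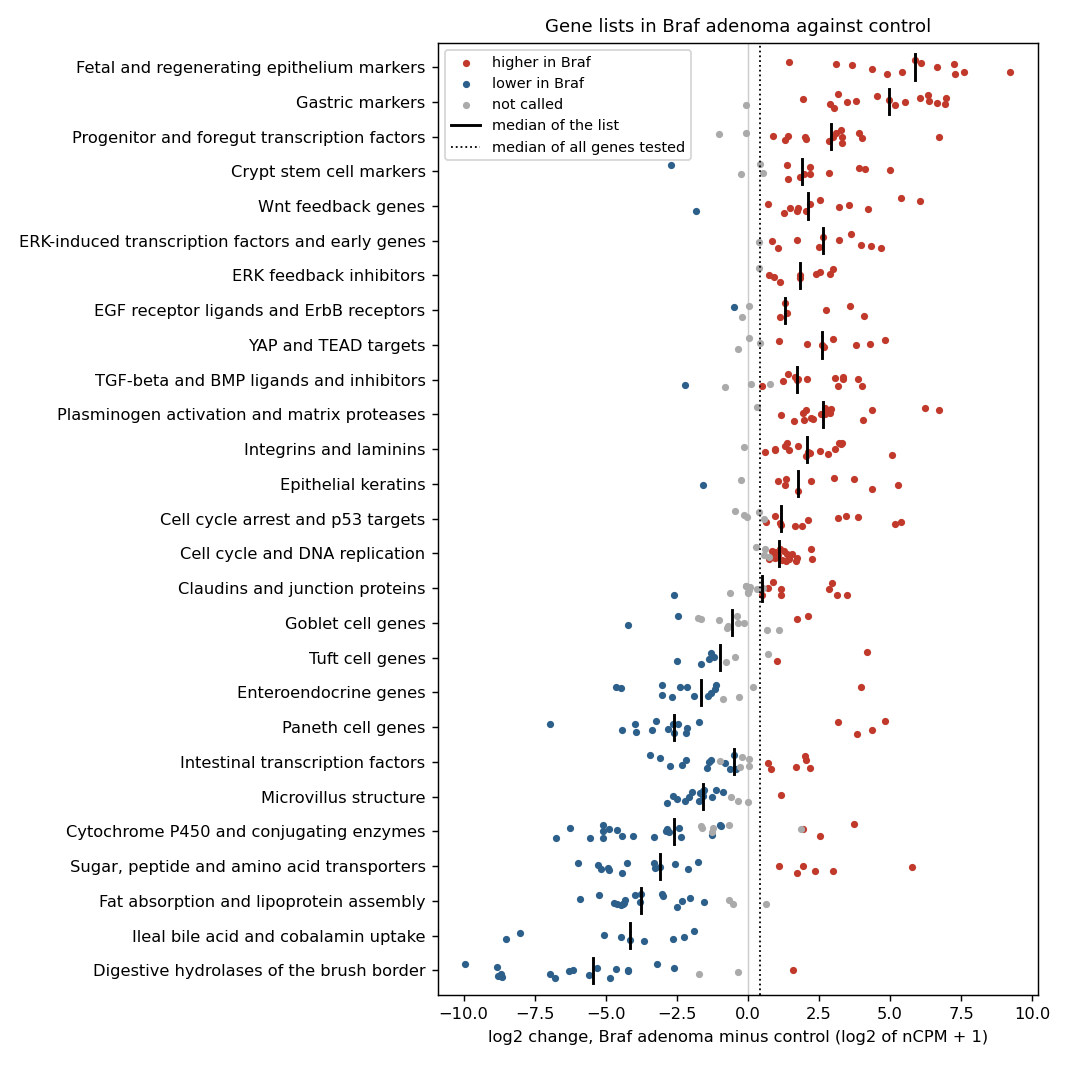
Log2 change, Braf adenoma minus control, of every tested member of 27 gene lists, with red points higher, blue points lower and grey points not called at an adjusted p of 0.05. The black bar is the median of the list and the dotted line the median of all genes tested, 0.42. Hydrolases lie lowest at a median of -5.44 and fetal markers highest at 5.88.

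Secretory lineages changed in different ways. Paneth cell genes fell in 13 of 17 and rose in 4 (median -2.59). The alpha-defensins Defa21, Defa22 and Defa29, whose reads may be split between near-identical copies, were at 0.363 ± 0.377 against 29.8 ± 13.3 nCPM, 0.648 ± 0.581 against 24.6 ± 8.51 nCPM and 0.517 ± 0.529 against 22.5 ± 7.67 nCPM, and the lectin Reg3a at 0.487 ± 0.438 against 179.8 ± 35.3 nCPM. Against them rose the secreted phospholipase gene Pla2g2a (248 ± 54.7 against 8.13 ± 3.47 nCPM), which GENCODE annotates as a polymorphic pseudogene. So did matrilysin (Mmp7, 240.3 ± 164 against 8.44 ± 3.29 nCPM), the serine protease Habp2 (33.7 ± 20.4 against 2.23 ± 0.774 nCPM) and Lyz2 (51.1 ± 21.8 against 2.84 ± 1.86 nCPM), the lysozyme of macrophages. Their hormone-producing neighbours, the enteroendocrine cells, were lower in 12 of 16 genes and higher in 1 (median -1.64). Neurotensin (Nts) was at 0.196 ± 0.287 against 27.2 ± 12.1 nCPM, proglucagon (Gcg) at 0.0647 ± 0.0886 against 8.02 ± 2.61 nCPM, chromogranin A (Chga) at 4.61 ± 2.62 against 40.4 ± 11.1 nCPM and somatostatin (Sst) at 2.09 ± 1.69 against 17.1 ± 5.51 nCPM. The gene that rose was carboxypeptidase E (Cpe, 189 ± 35.8 against 11.2 ± 2.94 nCPM), which processes peptide hormones. Ghrelin (Ghrl, 0.637 to 9.54 against 1.53 to 3.71 nCPM), peptide YY (Pyy, 2.13 to 5.403 against 4.19 to 9.29 nCPM) and Scg2 (0.393 to 4.11 against 1.36 to 3.33 nCPM) did not pass, and Pyy fell after TMM scaling.

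Goblet cell genes mostly passed in neither direction, 2 rising and 2 falling of 14 (median -0.55). Agr2, a chaperone for mucins, was at 970.2 ± 661 against 202 ± 82.7 nCPM and the goblet cell factor Spdef at 62.9 ± 30.8 against 17.1 ± 5.101 nCPM, while the guanylin gene Guca2a fell to 20.8 ± 9.69 against 361 ± 61.7 nCPM and Ang4 to 2.16 ± 2.4 against 13.6 ± 3.003 nCPM. The summed level of the 14 genes was 4878, 5374, 13873, 6658 and 1575 nCPM in Braf 4 to 8 and 3230 to 7771 nCPM in controls. The groups overlapped, with Braf 6 above and Braf 8 below all controls. Tuft cell genes fell in 5 and rose in 2 of 10 tested (median -0.99). Pou2f3, the factor that makes tuft cells, was at 0.752 ± 0.217 against 3.61 ± 0.9799 nCPM and the taste channel Trpm5 at 5.23 ± 1.63 against 18.8 ± 5.47 nCPM, whereas the actin-binding Avil reached 187 ± 74.6 against 9.08 ± 3.78 nCPM and Ptgs1 7.77 ± 2.32 against 3.27 ± 0.7405 nCPM. The kinase Dclk1 (2.41 to 12.5 against 4.03 to 15.3 nCPM), Hpgds (2.43 to 14.3 against 1.39 to 3.84 nCPM) and Il17rb (1.85 to 5.66 against 3.43 to 5.595 nCPM) did not pass, and Dclk1 and Il17rb fell after TMM scaling. The summed level of the 10 genes was 142 to 312 nCPM in adenomas and 46.4 to 131 nCPM in controls, higher in every adenoma than in any control. Without Avil the sum of the other 9 was 30.8 to 40.3 nCPM in adenomas and 41.8 to 115 nCPM in controls, lower in every adenoma than in any control.

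Proliferation genes were higher to a lesser degree. Of 24 genes of the cell cycle and DNA replication 20 rose and none fell (median 1.1, 14 rose after TMM scaling). Cyclin D2 (Ccnd2) was at 473 ± 183 against 97.9 ± 23.2 nCPM, cyclin D1 (Ccnd1) at 67.5 ± 30.7 against 19.03 ± 6.05 nCPM, the ribonucleotide reductase subunit Rrm2 at 85.6 ± 19.1 against 18.4 ± 8.31 nCPM and Cdk1 at 72.6 ± 15.5 against 23.2 ± 9.505 nCPM. Mki67, named here as the common proliferation marker, was at 181 ± 49.1 against 119.9 ± 35.01 nCPM (log2 change 0.61, 95% interval 0.02 to 1.21, adjusted p = 0.0679). Braf 8 was the highest adenoma for 17 of the 20 genes and Braf 7 the lowest for 15, the reverse of their order in the absorptive lists. Orders among adenomas, here and above, are of values without rescaling. The TMM factor was highest among adenomas in Braf 8 (1.25) and lowest in Braf 7 (1.01). The part of scaling in these orders was not tested.

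Genes of arrest and the p53 response rose beside them, in 12 of 17 with none falling (median 1.17, with 2 falling after TMM scaling). Cdkn2a, which encodes the cell cycle inhibitor p16 and, from another frame, p19Arf, had 30.4, 61.2, 49.5, 23.2 and 75.2 nCPM in Braf 4 to 8 and 0 to 0.467 nCPM (median 0.308) in controls (log2 change 5.18, SE 0.31, adjusted p = 3.68e-11). No adenoma came near a control, although counts of the gene do not separate its 2 products. The p53 targets Phlda3 and Eda2r were at 70.6 ± 16.9 against 0.695 ± 0.368 nCPM and 10.9 ± 3.83 against 0.272 ± 0.181 nCPM, Ccng1 at 159.9 ± 27.4 against 42.2 ± 8.24 nCPM and the kinase Plk2 at 55 ± 16.9 against 4.01 ± 0.802 nCPM. Cdkn1a, which encodes p21, rose little (243 ± 69.1 against 149 ± 12.1 nCPM, log2 change 0.65, SE 0.24, adjusted p = 0.0218). Its adjusted p was 0.0536 without Braf 4 and 0.0625 without Braf 7, and the call ended after TMM scaling. Mdm2, itself a p53 target, was at 82.7 ± 17.2 against 85.7 ± 22.8 nCPM (log2 change -0.04, 95% interval -0.44 to 0.35, adjusted p = 0.862).

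Of 14 apoptosis regulators of the BCL2 family 9 rose and 1 fell (median 0.75), where 45.3% of all genes rose and 16.2% fell. After TMM scaling 5 rose and 3 fell (median 0.37 against 0.07 over all genes). The proapoptotic Bcl2l11 (BIM), which ERK signalling is known to repress, was at 46.9 ± 21.1 against 8.48 ± 1.11 nCPM, and Bax at 87.6 ± 23.7 against 26.3 ± 3.59 nCPM. The protective Bcl2l1 (BCL-XL) was at 151 ± 21.7 against 69.2 ± 7.84 nCPM, and Bcl2l15 fell to 1.92 ± 2.04 against 16.2 ± 5.91 nCPM. Of 9 genes of DNA methylation and mismatch repair 2 rose (median 0.07), a share below that of all genes, and after TMM scaling 1 rose and 3 fell. The 2 that rose without rescaling were the methyltransferase Dnmt3b (6.28 ± 0.994 against 2.56 ± 1.04 nCPM) and the maintenance factor Uhrf1 (55.5 ± 18.5 against 31.2 ± 11.6 nCPM), and the call of Uhrf1 ended after TMM scaling. It also ended without Braf 5 or 8 or control 4 or 5, at adjusted p of 0.0516 to 0.0816, and without control 6 (0.0524).

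Structural genes of the villus surface were lower. Of 18 microvillus genes 14 fell and 1 rose (median -1.57), among them brush border myosins Myo1a (362 ± 160.2 against 2063 ± 202 nCPM) and Myo7b (244 ± 44.4 against 795 ± 102 nCPM), villin (Vil1, 847 ± 292 against 2593 ± 163 nCPM) and the actin nucleator Cobl (63.5 ± 34.2 against 272 ± 28.6 nCPM). Baiap2l1 rose (129.8 ± 19.7 against 57.5 ± 4.94 nCPM) while its relative Baiap2l2 fell (144 ± 53.7 against 765 ± 76.8 nCPM). Vil1 is the gene whose promoter drives Cre in all these animals. Eps8 (141 to 219 against 164 to 208 nCPM), Mall (71.8 to 182 against 118 to 178 nCPM) and Plec (313 to 654 against 484 to 760.1 nCPM) did not pass, and Mall and Plec fell after TMM scaling. Braf 4 to 8 kept a median of 34.8%, 19.7%, 32.1%, 53.9% and 19.7% of the control mean over the 14 genes, beside 2.22%, 0.362%, 1.45%, 5.29% and 0.297% for the hydrolases that microvilli carry. Of 11 tested keratins 9 rose and 1 fell (median 1.75). Krt7, a keratin of ductal and gastric epithelium, was at 1234 ± 458 against 57.04 ± 11.01 nCPM, Krt23 at 256 ± 52.6 against 5.76 ± 2.23 nCPM, Krt18 at 2372 ± 444 against 179 ± 44.1 nCPM and Krt19 at 3857 ± 578 against 1536 ± 304 nCPM, and Krt20, a keratin of mature villus cells, fell (768 ± 572 against 1878 ± 195 nCPM, log2 change -1.59, SE 0.51, adjusted p = 0.0117), while Krt15 did not pass (1.42 to 3.57 against 1.91 to 3.48 nCPM).

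Of 19 claudins and junction proteins 9 rose and 1 fell (median 0.51, against 0.42 over all genes). The share that rose was near the 45.3% of all genes. After TMM scaling 7 rose and 3 fell. The pore-forming claudin Cldn2 was at 425 ± 220.4 against 50.3 ± 11.3 nCPM, Cldn4 at 412 ± 131 against 46.5 ± 15.4 nCPM, the gastric claudin Cldn18 at 53.8 ± 81.6 against 1.02 ± 0.719 nCPM and E-cadherin (Cdh1) at 1046 ± 157 against 467 ± 59.7 nCPM. Cldn15, the sodium-permeable claudin of the small intestine, fell (159 ± 113 against 766 ± 157 nCPM). Of 18 integrin and laminin genes 17 rose (median 2.07), led by Lama5 (168 ± 65.7 against 3.89 ± 1.88 nCPM) and Itga2 (147 ± 44.5 against 15.5 ± 4.96 nCPM), and Itga3 did not pass (233 to 319.7 against 269 to 342 nCPM) and fell after TMM scaling. Proteases of plasminogen and matrix rose in 17 of 18 (median 2.63). Plat, the tissue plasminogen activator, had 105, 77.4, 240, 141 and 230.3 nCPM in Braf 4 to 8 and 0 to 0.819 nCPM (median 0.378) in controls (log2 change 6.73, SE 0.26, adjusted p = 6.79e-14), and the urokinase receptor Plaur 248, 112, 143, 150 and 159.6 nCPM and 0.242 to 1.896 nCPM (median 1.22) (log2 change 6.22, SE 0.30, adjusted p = 3.38e-12). Neither overlapped between the groups. Mmp14 stood at 119.7 ± 70.5 against 13.1 ± 2.43 nCPM and Mmp10 at 25.1 ± 10.5 against 0.479 ± 0.461 nCPM, and the inhibitor Timp3 did not pass (1.43 to 3.502 against 0.4305 to 3.62 nCPM).

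Immune genes of the epithelium and its guests moved in both directions. Of 19 tested chemokines and cytokines 13 rose and 3 fell (median 1.5). Cxcl16 was at 143 ± 18.8 against 29.6 ± 5.48 nCPM, interleukin-1 alpha (Il1a) at 9.07 ± 3.86 against 0.205 ± 0.301 nCPM, Tnf at 15.97 ± 10.5 against 0.724 ± 0.487 nCPM and Csf1 at 15.7 ± 8.15 against 1.12 ± 0.471 nCPM. The falls were Ccl25 (155 ± 107 against 727 ± 44.5 nCPM), which draws T cells to the small intestine, Il18 (30.4 ± 2.21 against 81.1 ± 20.04 nCPM) and Ccl28 (6.997 ± 4.45 against 22.7 ± 7.39 nCPM), while Ccl9 (5.24 to 11.9 against 3.098 to 9.08 nCPM), Il11 (0.396 to 3.57 against 0.426 to 1.305 nCPM) and Lif (9.27 to 14.4 against 10.3 to 15.4 nCPM) did not pass, Lif falling after TMM scaling. Butyrophilin-like genes, which shape intraepithelial gamma-delta T cells, fell in 5 of 5 tested (median -3.72). Btnl1 was at 39.1 ± 37.7 against 298 ± 41.4 nCPM and Btnl6 at 9.03 ± 8.101 against 138 ± 33.5 nCPM. Markers of T and intraepithelial lymphocytes fell in 10 of 11 (median -1.77), with Cd8a at 2.21 ± 1.52 against 17.5 ± 5.76 nCPM, the gamma chain gene Cd3g at 3.62 ± 1.77 against 11.2 ± 3.77 nCPM and granzyme B (Gzmb) at 3.36 ± 3.52 against 20.6 ± 8.05 nCPM. Itgae, the integrin that holds these cells in the epithelium, did not pass (3.89 to 5.09 against 2.89 to 11.3 nCPM) and fell after TMM scaling.

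Antimicrobial and acute phase genes rose in 12 of 17 tested (median 2.65). Duox2, which makes hydrogen peroxide at the mucosal surface, was at 387 ± 246 against 35.9 ± 12.4 nCPM, its maturation factor Duoxa2 at 79.4 ± 54.3 against 1.93 ± 1.11 nCPM, lipocalin 2 (Lcn2) at 9.12 ± 5.43 against 0.0783 ± 0.1301 nCPM and S100a11 at 859 ± 126 against 38.2 ± 8.67 nCPM. Prostaglandin genes rose in 9 and fell in 1 of 13 (median 0.99). The synthase Ptges was at 10.3 ± 4.29 against 0.221 ± 0.307 nCPM, Hpgd, which degrades prostaglandins, fell to 103 ± 115 against 308 ± 71.04 nCPM, and Ptger1 (0.159 to 1.71 against 0.592 to 1.79 nCPM), Ptges2 (23.2 to 34.6 against 30.03 to 44.4 nCPM) and the importer Slco2a1 (9.24 to 103 against 69.2 to 94.9 nCPM) did not pass, and Ptges2 and Slco2a1 fell after TMM scaling. Ptgs2, the inducible cyclooxygenase, was low in both groups (0.397 to 3.74 against 0 to 0.236 nCPM, log2 change 0.99, SE 0.35, adjusted p = 0.0176), and its adjusted p was 0.0703 without Braf 4. Interferon-induced genes rose in 7 of 20 (median 0.71), a share below the 45.3% of all genes, and of 8 MHC class II genes none passed in either direction (limma, 0 of 8 also after TMM scaling, 0 at an unadjusted p below 0.05). Their levels were uneven among libraries, with Cd74, the invariant chain, at 90.8 to 229 against 15.6 to 704 nCPM. Among interferon-induced genes the guanylate-binding protein gene Gbp2 was at 29.4 ± 35.8 against 1.27 ± 0.4298 nCPM and the antiviral Rsad2 at 15.5 ± 11.3 against 4.75 ± 2.11 nCPM.

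Markers of several other cell types of the gut wall were higher in adenomas. Controls were of epithelial tissue, so the material sampled and a change in these cells cannot be told apart. Smooth muscle markers rose in 9 of 10 (median 5.08), with the contractile protein genes Acta2 at 83.8 ± 53.5 against 0.304 ± 0.35 nCPM and Des at 148 ± 108 against 0.568 ± 0.381 nCPM, while Tagln did not pass (0.477 to 1.12 against 0.157 to 1.07 nCPM). The summed level of the 10 genes was 892, 583, 1151, 287 and 105 nCPM in Braf 4 to 8 and 3.52 to 12.5 nCPM in controls. Collagen Col1a1 was at 41.9 ± 36.8 against 0.892 ± 0.342 nCPM, and the sum over 11 fibroblast markers, all of which rose, was 150 to 657 nCPM in Braf adenomas and 11.3 to 21.7 nCPM in controls. Endothelial markers rose in 10 of 11 (35.2 to 207 against 7.46 to 13.2 nCPM), macrophage markers in 9 of 10 (152 to 278 against 20.04 to 33.9 nCPM), and neutrophil markers in 3 of 3 tested (11.6 to 29.4 against 0 to 0.626 nCPM). No adenoma overlapped a control in these sums. Of these lists Lyve1 (2.72 to 4.63 against 2.24 to 5.75 nCPM) and Itgam (2.86 to 7.11 against 5.36 to 6.93 nCPM) did not pass, and Itgam fell after TMM scaling. The mast cell proteases Mcpt1 (63.7 to 245 against 0.2996 to 6.17 nCPM) and Mcpt2 rose while Kit, the mast cell receptor that other cells also express, did not pass (1.55 to 9.66 against 3.87 to 8.61 nCPM) and fell after TMM scaling. Markers of B and plasma cells rose in 2 of 4 tested, near the 45.3% of all genes, and their sums overlapped (34.6 to 499 against 3.41 to 97.1 nCPM). Those of enteric glia and neurons rose in 3 of 4 (14.1 to 37.0 against 0.815 to 2.77 nCPM). Of 2 tested pancreas markers 1 rose, the elastase Cela1 (61.7 to 164 against 8.22 to 15.2 nCPM), again near that share. Epithelial markers rose in 4 of 7 and fell in 1, Vil1, where 45.3% of all genes rose and 16.2% fell. Epcam at 1992 to 2485 against 1413 to 2023 nCPM and Cldn7 at 782 to 1070.3 against 712 to 1008 nCPM passed in neither direction. The 7 markers gave a summed level of 14418 to 18475 nCPM in adenomas and 8491 to 11382 nCPM in controls. Epithelial RNA was thus present in every library of both groups. In bulk tissue fewer cells of a type and less RNA per cell cannot be told apart, and the part of these cells in the rises of matrix, laminin, chemokine and TGF-beta genes was not tested. Braf 8 had the lowest smooth muscle, fibroblast and endothelial sums of the adenomas and the highest level of Clu. Of 10 genes of the stress that tissue dissociation gives 5 rose, near the share of all genes, and 1, Zfp36, fell. Their sum was 793 to 1947 nCPM in adenomas and 630 to 786 nCPM in controls. Without Junb it was 577 to 1597 nCPM in adenomas and 480 to 619 nCPM in controls, which overlapped. Of 5 tested haemoglobin and erythroid genes none passed in limma, 0 at an unadjusted p below 0.05 and 0 after TMM scaling (28.4 to 313 nCPM summed in adenomas and 20.7 to 258 nCPM in controls).

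**Figure D5:**
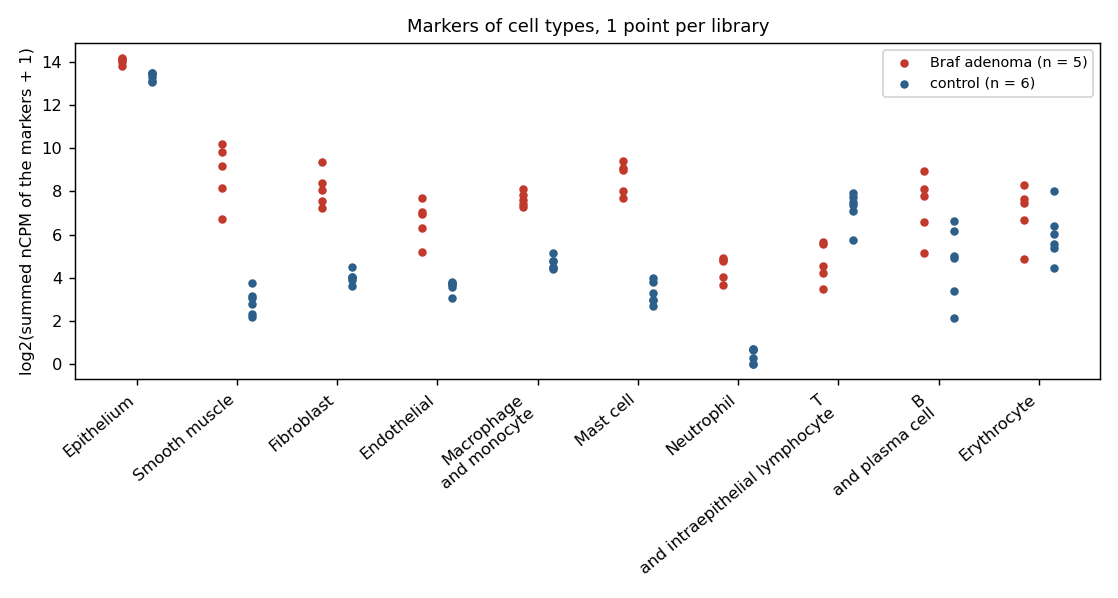
Summed nCPM of marker genes of 10 cell types as log2(sum + 1), 1 point per library, with Braf adenomas in red left of controls in blue. Stromal and myeloid sums lie above all controls in every adenoma, and the lymphocyte sum lies below all controls.

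Metabolic genes parted by pathway. Fatty acid oxidation fell in 14 of 19 and rose in 0 (median -0.86), with the same counts at an unadjusted p below 0.05. Ppargc1a, the coactivator that promotes mitochondrial genes, was at 9.52 ± 2.802 against 74.7 ± 22.96 nCPM, the dehydrogenase Hadh at 159.7 ± 52.9 against 687 ± 52.8 nCPM and Acadvl at 33.8 ± 15.5 against 92.8 ± 18.1 nCPM. The 21 genes listed under glycolysis and lactate export included the glucose-producing enzymes Fbp1, Pck1 and G6pc. Of the 21, 5 rose and 6 fell (median -0.09). The share that rose was below the 45.3%, and the share that fell above the 16.2%, of all genes. After TMM scaling 4 rose and 9 fell. The hexokinases Hk1 and Hk2 were at 89.7 ± 20.3 against 6.11 ± 1.87 nCPM and 126 ± 55.5 against 14.1 ± 3.09 nCPM, the aldolase Aldoa at 809.5 ± 119.9 against 364 ± 49.6 nCPM, the lactate transporter Slc16a1 at 131 ± 12.8 against 69.5 ± 22.6 nCPM and Pfkl at 153 ± 34.6 against 85.9 ± 18.5 nCPM, and these are the 5 that rose, the call of Pfkl ending after TMM scaling. The falls were led by glucose-producing enzymes, with Fbp1 at 1.38 ± 1.14 against 69.3 ± 14.2 nCPM, Pck1 at 7.38 ± 10.5 against 519.9 ± 151 nCPM and G6pc at 1.24 ± 1.81 against 30.5 ± 10.1 nCPM.

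Of 16 tested genes of retinol and vitamin A metabolism 7 rose and 6 fell (median 0.15). The share that rose was near the 45.3% of all genes. After TMM scaling 6 rose and 6 fell (median -0.18). Among genes of dietary vitamin A handling, Aldh1a1 was at 18.2 ± 6.84 against 578 ± 153 nCPM, Lrat, whose enzyme esterifies retinol, at 3.21 ± 2.84 against 29.2 ± 6.45 nCPM and the cellular retinol binding protein Rbp2 at 1098 ± 1158 against 3995 ± 738 nCPM. The retinol dehydrogenases Rdh7 (14.3 ± 15.4 against 276 ± 36.1 nCPM) and Rdh16 (0.197 ± 0.298 against 7.47 ± 2.59 nCPM) and the saturase Retsat (34.5 ± 20.7 against 214 ± 83.9 nCPM) fell with them, and Bco1 (6.92 to 9.36 against 3.01 to 88.7 nCPM), Dhrs3 (48.3 to 129 against 77.02 to 86.9 nCPM) and Rbp4 (0.678 to 7.03 against 1.33 to 2.19 nCPM) did not pass. The retinol importer Stra6 had 41.3, 128, 165, 50.5 and 283 nCPM in Braf 4 to 8 and 0 to 0.158 nCPM (median 0) in controls (log2 change 6.69, SE 0.44, adjusted p = 1.03e-09), and Aldh1a3 had 157, 214, 315, 118 and 537 nCPM and 0.158 to 1.797 nCPM (median 0.988) (log2 change 6.93, SE 0.46, adjusted p = 2.17e-09). Both were far above all controls in every adenoma, so the aldehyde dehydrogenases Aldh1a1 and Aldh1a3 moved in opposite directions. NRF2 targets rose in 6 and fell in 3 of 16. The share that rose was below the 45.3%, and the share that fell near the 16.2%, of all genes. After TMM scaling 5 rose and 6 fell. Next to Slc7a11 the rises included haem oxygenase (Hmox1, 44.9 ± 25.9 against 0.671 ± 0.233 nCPM) and the glutathione peroxidase Gpx2 (1086 ± 663 against 154 ± 27.7 nCPM), and the falls were Osgin1 (27.4 ± 17.8 against 87.9 ± 14.1 nCPM), Srxn1 (127 ± 42.95 against 220.1 ± 29.2 nCPM) and Gclm (96.9 ± 16.8 against 146 ± 20.7 nCPM). The adjusted p of Gclm was 0.0168, and 0.0571 without Braf 5.

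Adenomas varied more among themselves than controls did. The median SD of log2 values was 0.37 among Braf and 0.269 among control libraries, and it was larger among adenomas for 70.9% of genes. Among the genes with the widest spread among adenomas, Sis and Muc5ac are given above. Slc26a3, the chloride exchanger of villus and colon, had 210.3, 11.9, 163, 287 and 0.831 nCPM in Braf 4 to 8 and 245 to 321 nCPM (median 265) in controls (log2 change -2.51, 95% interval -5.20 to 0.18, adjusted p = 0.0974), with Braf 7 highest and Braf 8 lowest as in the absorptive lists. Xist, the RNA of the inactive X chromosome, had 1.12, 1.95, 0.534, 0.476 and 1299.7 nCPM in Braf 4 to 8 and 1.04 to 836 nCPM (median 504) in controls. The ribosomal pseudogene Rps2-ps10, which may share reads with its parent gene, had 2.58, 145, 1.23, 338 and 469 nCPM and 1.15 to 102 nCPM (median 75.4).

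The authors' deposited table also holds a list headed as genes up in BRAF over control by more than 2-fold at p below 0.01, without naming the libraries used. Of its 3290 symbols in the authors' deposited table, 3239 were tested here, 3222 rose and none fell, and 2940 rose at least 2-fold. These 2940 are 79.0% of the 3719 genes that rose at least 2-fold here. The list may rest on these same libraries, so the overlap is not an independent test.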

How the data were processed

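RNA of adenomas and of intestinal epithelium was sequenced on an Illumina NovaSeq, with either a TruSeq kit or a stranded kit after removal of ribosomal RNA, per the labels' protocols, which do not say which library had which. Reads were processed with fastp, STAR and limma on GRCm38, per the submitters' processing notes, in versions not given in the sources used here. The deposited table holds the authors' normalised counts per gene (signal, not raw counts) for 18 libraries, and columns sum to nearly the same total. Values below 0.5 normalised counts were read as 0, since control libraries hold fractions up to 0.313 in place of zeros. Of 15176 genes (15177 lines with 1 repeated), the 14806 with at least 1 nCPM in at least 5 libraries were tested on log2(nCPM + 1) with limma 3.58.1 (R 4.3.3), with all 17 grouped libraries sharing the estimate of the spread and no batch term. TMM factors were computed on these values with 30% of the log ratios and 5% of the mean levels trimmed at each end. The test was checked on simulated data with few genes changed, balanced in direction, and the same dispersion in every group. These data differ in those respects, so the check does not cover the shift of the median gene or the wider spread among adenomas. Libraries are titled as separate samples, and p-values measure the spread between them. Counts do not use a stated strand, so overlapping antisense genes cannot be told apart.

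The genes and lists were chosen with earlier results of these data known. Named were the 12 largest rises and falls without overlap and with a mean of at least 5 nCPM in the higher group, of each list up to 6 members of smallest adjusted p, members against the majority and members not called where they were 3 or fewer, and the 6 genes of widest spread among adenomas with a mean of at least 50 nCPM there. Apoa1, Cd3g, Cdkn1a, Cdx2, Cldn18, Cyp2c29, Cyp3a11, Fabp1, Fos, Hnf4a, Inhba, Mdm2, Mki67, Mmp10, Ptgs2, Slc3a1, Slc7a8 and Treh were named outside these rules, after their values were seen. A few genes were left out of the lists and the text and are not reported here. The authors' deposited list of raised genes holds symbols only (other, no values). Positions are from GENCODE M21 on GRCm38, where 14794 of 14806 gene IDs were found. Promoter windows hold the 250 bases upstream of RefSeq start sites. Alternatives were other pseudocounts, filters, scalings, a fit of both groups alone, array weights, the replicate number as a block, and each library left out in turn. Added after seeing the data were a term for Y-linked RNA, leaving out the 2 libraries of highest mitochondrial share in each group, and sums of a list without its most abundant member. Titles give 4 replicate numbers to both groups, and deviations of same-numbered libraries correlated at 0.061, 0.117, 0.148 and -0.059, so the numbers were not taken as pairs.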

Additional observations from a re-analysis of the deposited data

Results flagged for a closer look

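In the genes named, a single library stood apart from the rest of its group 36 times, by the gap to its nearest neighbour as a share of the range (Dixon's ratio at the 95% level). The search covered 593 groups (297 genes in Braf adenomas and in controls, less 1 with no spread), and chance alone gives about 1 in 20, here 29.6. The number found is near that. In 4 of them all others were at 0, where any value above 0 stands apart by construction. Braf 4 held Eda2r at 4.36 nCPM (11.6 to 14.1 nCPM in the others). Braf 5 held Cd3g at 0.698 nCPM (3.65 to 5.49 nCPM in the others), Tead4 at 20.02 nCPM (6.62 to 8.14 nCPM in the others) and Tgfb1 at 29.8 nCPM (17.6 to 19.7 nCPM in the others). Braf 6 held Ghrl at 9.54 nCPM (0.637 to 1.27 nCPM in the others) and Slc2a1 at 89.3 nCPM (64.4 to 69.3 nCPM in the others). Braf 7 held Atg9b at 375 nCPM (824 to 1089.6 nCPM in the others), Cyp2b10 at 41.8 nCPM (0.343 to 1.66 nCPM in the others) and Cyp2c29 at 0.159 nCPM (listed at 0 in the others). It also held G6pc at 4.45 nCPM (0.165 to 0.798 nCPM in the others) and Phlda3 at 41.8 nCPM (70.3 to 84.6 nCPM in the others). Braf 8 held Braf at 33.5 nCPM (19.7 to 21.9 nCPM in the others), Mmp10 at 7.65 nCPM (23.2 to 32.9 nCPM in the others) and Scg2 at 0.393 nCPM (3.34 to 4.11 nCPM in the others). It also held Xist at 1299.7 nCPM (0.476 to 1.95 nCPM in the others). Control 4 held Cd3g at 4.59 nCPM (10.03 to 15.4 nCPM in the others), Cyp1b1 at 0.245 nCPM (under 0.5 normalised counts, read as 0, in the others) and Ereg at 12.2 nCPM (2.46 to 4.17 nCPM in the others). It also held Gcg at 3.19 nCPM (7.31 to 10.3 nCPM in the others), Gdf15 at 0.244 nCPM (1.52 to 2.81 nCPM in the others) and Itgae at 2.89 nCPM (7.56 to 11.3 nCPM in the others). Further values of this library were Lgr5 at 2.91 nCPM (5.51 to 7.78 nCPM in the others), Mep1a at 433 nCPM (224 to 268 nCPM in the others) and Mki67 at 52.9 nCPM (114 to 149 nCPM in the others). Its last values were Slc2a1 at 2.93 nCPM (7.82 to 12.8 nCPM in the others) and Tcf7 at 1.21 nCPM (3.2 to 5.17 nCPM in the others). Control 5 held Epcam at 1413 nCPM (1783 to 2023 nCPM in the others), G6pc at 12.6 nCPM (28.6 to 40.8 nCPM in the others) and Mdm2 at 131 nCPM (68.6 to 83.7 nCPM in the others). It also held Rps2-ps10 at 1.15 nCPM (45.6 to 102 nCPM in the others). Control 6 held Ctse at 30.99 nCPM (8.71 to 11.6 nCPM in the others), Sox4 at 17.3 nCPM (25.6 to 31.6 nCPM in the others) and Stra6 at 0.158 nCPM (under 0.5 normalised counts, read as 0, in the others). Control 7 held Slc5a12 at 113 nCPM (174 to 224 nCPM in the others). Control 9 held Inhba at 0.3098 nCPM (under 0.5 normalised counts, read as 0, in the others) and Tnfrsf11b at 0.612 nCPM (0.221 to 0.313 nCPM in the others). Control 4, with 11 of these values, also had the highest mitochondrial share (23.4%), and the part of that share in them was not tested.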

How the results depend on the processing

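Of 297 genes named, 240 were called, 250 kept their side of the threshold under each alternative that gave a value, and none reversed. The count of genes lower in Braf adenomas was 2404 without rescaling, 4042 after TMM and 4116 after median-ratio rescaling, and 2886 after rescaling without mitochondrially encoded genes. The share of higher among called genes was 73.6% without rescaling, 53.4% after TMM, 52.3% after median-ratio rescaling and 67.8% without mitochondrially encoded genes. Under TMM the calls of Cdkn1a, Foxa2, Jund, Klf5, Pfkl and Uhrf1 were lost, and 21 genes named gained a call. Genes changed at least 2-fold numbered 5150, and 3189 with a pseudocount of 5, which shrinks folds of low genes by its construction. Leaving out each library in turn gave 8323 to 9336 genes changed, 6069 to 6943 higher, 2234 to 2393 lower and 4869 to 5591 changed at least 2-fold. A term for libraries with Y-linked RNA gave 8822 genes changed. The count was 7832 without the 2 Braf libraries, and 7796 without the 2 controls, of highest mitochondrial share. Of 53 lists, 50 had a direction of most calls. After TMM, and likewise after median-ratio rescaling, 47 kept it. NRF2 targets and DNA methylation reversed, retinol metabolism had none, and goblet cell genes gained one. After TMM the NRF2 list had 6 genes lower and 5 higher of 16 tested. The DNA methylation list had 3 lower and 1 higher of 9 tested. The 4 lists whose median changed sign under TMM were retinol metabolism, NRF2 targets, DNA methylation and MHC class II genes.

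With the replicate number as a block, on the 8 libraries whose number both groups share, 8116 genes changed, against 8309 in the same libraries without the block, and the numbers did not pair the samples. A term for the kind of zero could not be fitted, because fractions in place of zeros occur in all 6 controls and exact zeros in all 5 Braf libraries. Depth is known only as an estimate from the smallest steps, so values of the order of 1 nCPM rest on few reads.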

Other observations

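Tagln, the gene of the smooth muscle protein transgelin, was near 0 in every library (0.477 to 1.12 against 0.157 to 1.07 nCPM in Braf adenomas against controls), while Acta2 had 114, 99.6, 147, 39.1 and 18.7 nCPM in Braf 4 to 8. Myh11, smooth muscle myosin, had 164, 86.2, 199, 50.1 and 13.3 nCPM in the same adenomas, against 0 to 1.95 nCPM (median 0.538) in controls. In windows upstream of genes at least 2-fold higher in Braf adenomas, CCGGAAGT, a form of the ETS site, stood in 3.26%, in windows of genes at least 2-fold lower in 2.05%, and in 5.4% of all windows. CATTCCA, the letters TEAD factors bind, stood in 3.18%, 3.74% and 2.72% of the same sets, with both strands searched for either.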
